A study of Macaca mulatta with 20 samples.

Results

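LEF1, AXIN2, TRIB2, SEPTIN3, APOD and SPOCK2 are 6 genes whose probes read higher in helper T cells than in cytotoxic T cells, B cells or monocytes of rhesus macaque blood. They were taken by gene symbol from the array's annotation, after differences between helper T cells and the other types in these same data had been seen. The 6 genes have 7 probes, 2 of them for LEF1, out of 5236 gene symbols and 7303 probes in the table. Because the helper differences led to the choice, they are described below without a test, and tests are given only for the comparisons among cytotoxic T cells, B cells and monocytes and for dominance rank.

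The study measured RNA from B cells, monocytes and 2 kinds of T cell, helper and cytotoxic, separated from the mononuclear cells of peripheral blood of 5 adult female rhesus macaques (Macaca mulatta). Each animal came from a different social group and held a different dominance rank, where 1 is high and 5 is low, and gave 1 array for each cell type. Rank, animal and social group therefore cannot be told apart. The labels name no treatment, and the sources used here do not give the gates of the sort. The helper T cell arrays carry CD4 in their titles, the cytotoxic arrays CD8, the B cell arrays CD20 and the monocyte arrays CD14.

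Values were taken as log2, so a difference of 1 is read as a doubling, although no source gives the logarithm's base. The 20 arrays share a common distribution with a median of 8.39, quartiles of 8.04 and 9.21 and a range from 7.5 to 14.77. The cytotoxic T cell and B cell arrays of the rank 4 animal stood apart. They correlated at 0.148 to 0.193 over all probes with the other 18 arrays, while any 2 of those 18 arrays of 1 cell type correlated at 0.910 or more. CD3D, which encodes part of the CD3 complex of T cells, read 7.87 in that cytotoxic array against 13.19 to 14.06 in the other cytotoxic arrays, and CD79B, which encodes a signalling subunit of the antigen receptor of B cells, read 8.36 in that B cell array against 13.15 to 13.90. Both arrays were left out, which leaves 5 helper, 4 cytotoxic, 4 B cell and 5 monocyte arrays. Among these 18 arrays CD14 read 12.14 to 14.16 in monocytes and at most 8.29 elsewhere. CD8A read 13.84 to 14.36 in cytotoxic T cells and lower elsewhere. Helper T cells read 8.31 to 11.29 for CD8A, B cells 8.20 to 10.97 and monocytes 7.99 to 8.54. CD4 read 8.22 to 8.85 in helper T cells against 7.58 to 7.69 in cytotoxic T cells. Monocytes read 7.81 to 8.30 for CD4, which overlaps the helper range. CD20, the name on the B cell titles, was not analysed here, and CD79B stands for that type, at 13.15 or more in B cells and at most 8.34 elsewhere. The probes were designed for human transcripts, so a probe is compared only with itself across arrays and never with another probe. No measure of background was used, so fold differences are given only where both levels lie well above the bottom of the scale.

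In the canonical Wnt pathway, a Wnt ligand bound by a Frizzled receptor stops a cytoplasmic complex built on Axin from marking β-catenin for destruction, and β-catenin then enters the nucleus and joins the DNA-binding proteins of the TCF/LEF family to switch on target genes. LEF1 is one of these DNA-binding proteins, and it is known in T cells for roles in the thymus, where LEF1 and its relative TCF7 help to form the helper lineage, and in naive and long-lived memory T cells. AXIN2 is a scaffold of the destruction complex and at the same time a target gene, so that the pathway switches on its own brake. TRIB2 is a pseudokinase of the Tribbles family that directs proteins such as C/EBPα to degradation, and it has been described as a target of the pathway in human cancer cells. The other three members have no settled place in Wnt signalling: SEPTIN3 is a GTP-binding protein of the septin cytoskeleton best known from neurons, APOD is a secreted carrier of lipids of the lipocalin family, and SPOCK2 is a secreted proteoglycan of the extracellular matrix, also called testican-2.

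The 6 genes shared their highest level in helper T cells but fell into different patterns below it. LEF1 and SPOCK2 stepped down from helper to cytotoxic T cells and again, by a wider step, to B cells and monocytes. AXIN2 and APOD lay near a common low level in the 3 other types, TRIB2 declined through cytotoxic T cells and B cells to monocytes, and SEPTIN3 had its next highest level in B cells. For all 7 probes, each helper array read above each of the other types' arrays, and the helper array read higher in every animal, in 4 of 4 animals against cytotoxic T cells and B cells and in 5 of 5 against monocytes. Over the whole table, 2.4% of probes had helper arrays entirely above the cytotoxic arrays, 8.53% entirely above the B cell arrays and 20.4% entirely above the monocyte arrays. Of the 21 helper differences of the 7 probes, 19 were at least 1 log2.

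**Figure D1:**
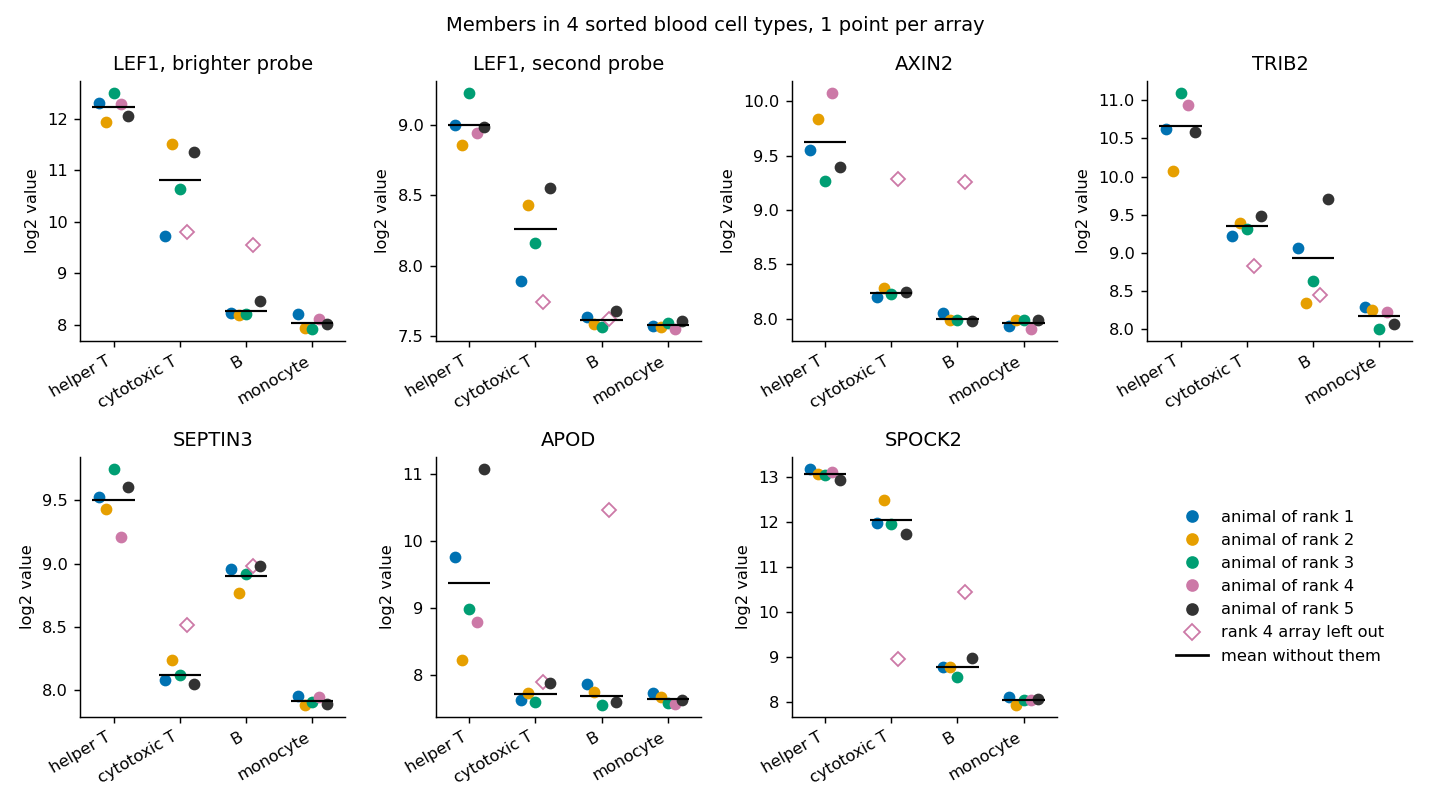
The log2 value of each of the 7 probes (y axis, a separate scale for each panel) in the 4 cell types (x axis), with 1 filled point per array coloured by animal, a line at the mean of the 18 arrays used, and open diamonds for the 2 rank 4 arrays left out. The helper points lie above the filled points of every other type in all panels, APOD spreads from 8.21 to 11.09 in helper T cells, and LEF1 spreads from 9.73 to 11.51 in cytotoxic T cells.

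LEF1, the DNA-binding end of the pathway, was a transcript of both T cell types. Its brighter probe read 12.31, 11.94, 12.51, 12.30 and 12.07 log2 in helper T cells of ranks 1 to 5 (12.23 ± 0.22, SD, n = 5). Cytotoxic T cells of ranks 1, 2, 3 and 5 read 9.73, 11.51, 10.65 and 11.36 (10.81 ± 0.82, n = 4). The helper arrays were close together, whereas the cytotoxic arrays of ranks 2 and 5 lay near the helper level and that of rank 1 lay far below it. B cells read 8.23, 8.19, 8.21 and 8.47 (8.27 ± 0.13) and monocytes read 8.21, 7.94, 7.91, 8.12 and 8.01 (8.04 ± 0.12), and these 2 types overlapped. The mean difference between helper and cytotoxic T cells was 1.39 ± 0.27 (SE), a 2.63-fold difference, but within animals it ranged from 0.43 at rank 2 and 0.71 at rank 5 to 1.86 at rank 3 and 2.58 at rank 1. Helper T cells lay 3.93 ± 0.27 above B cells and 4.19 ± 0.25 above monocytes.

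Cytotoxic T cells also carried more LEF1 than either type outside the T lineage. The difference was 2.54 ± 0.28 log2 from B cells (adjusted p = 1.70e-05, limma with Benjamini-Hochberg adjustment over all 7303 probes), and 2.79 ± 0.27 from monocytes (adjusted p = 1.46e-06), higher in 4 of 4 animals in both. B cells and monocytes differed by 0.25 ± 0.27 (adjusted p = 0.464), less than the error of the difference. Counted over the 7 probes, 4 passed the threshold of an adjusted p under 0.05 between cytotoxic T cells and B cells, where 24.9% of all probes did, 5 passed between cytotoxic T cells and monocytes, where 59.3% of all probes did, and 3 passed between B cells and monocytes, where 53.6% did. With most probes called against monocytes, a count of 5 or 3 of 7 does not set the genes apart from the table.

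The dimmer probe of LEF1 gave the same order with smaller steps. It read 9.001, 8.86, 9.23, 8.94 and 8.99 in helper T cells, and 7.89, 8.43, 8.16 and 8.55 in the 4 cytotoxic arrays in the order of rank. B cells lay between 7.57 and 7.68 and monocytes between 7.55 and 7.61, close to the lowest value of the table. On this probe, as on the brighter one, the cytotoxic array of rank 1 was the lowest of its type and those of ranks 2 and 5 the highest. The probe lay 0.75 ± 0.11 higher in helper than in cytotoxic T cells, and in cytotoxic T cells it was higher by 0.64 ± 0.11 than in B cells (limma, adjusted p = 0.000666) and by 0.67 ± 0.11 than in monocytes (adjusted p = 0.000120).

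AXIN2, the scaffold that is also a target gene, was a helper transcript with little signal elsewhere. For ranks 1 to 5, helper T cells read 9.55, 9.84, 9.26, 10.08 and 9.39 (9.63 ± 0.33, n = 5). Cytotoxic T cells read 8.20, 8.28, 8.22 and 8.24 (8.24 ± 0.03, n = 4), B cells 8.05, 7.99, 7.99 and 7.98 (8.002 ± 0.031) and monocytes 7.93, 7.99, 7.99, 7.91 and 7.98 (7.96 ± 0.04). The helper arrays differed among themselves by more than the whole distance between the other 3 types, and rank 4 was the highest helper array and rank 3 the lowest. Helper T cells lay 1.34 ± 0.11 above cytotoxic T cells, 1.57 ± 0.11 above B cells and 1.67 ± 0.10 above monocytes.

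Among the other 3 types, AXIN2 was higher in cytotoxic T cells than in monocytes by 0.33 ± 0.11 (limma, adjusted p = 0.0203), with a difference of 0.24 to 0.30 in each of 4 animals. That call was lost without the rank 1 animal (adjusted p = 0.0677), without the rank 5 animal (0.0541) and in the fit without the animal as a replicate block (0.0573). The difference of 0.24 ± 0.11 from B cells (adjusted p = 0.161) and that of 0.09 ± 0.11 between B cells and monocytes (adjusted p = 0.509) did not pass. The cytotoxic arrays did not overlap the B cell arrays, but the standard error is set by the spread over all 18 arrays, to which the helper arrays contribute most.

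TRIB2, the pseudokinase, followed a gradient. Helper T cells read 10.62, 10.07, 11.09, 10.94 and 10.58 for ranks 1 to 5 (10.66 ± 0.39, n = 5), and cytotoxic T cells 9.22, 9.39, 9.31 and 9.48 for ranks 1, 2, 3 and 5 (9.35 ± 0.11, n = 4). B cells read 9.06, 8.34, 8.63 and 9.71 (8.94 ± 0.59, n = 4) and monocytes 8.29, 8.25, 8.005, 8.23 and 8.08 (8.17 ± 0.12, n = 5). The B cell arrays overlapped the cytotoxic ones, with the rank 5 B cell array above every cytotoxic array and the rank 2 B cell array just above the monocytes. The helper level lay 1.27 ± 0.22 above cytotoxic T cells, a 2.41-fold difference, 1.68 ± 0.22 above B cells and 2.49 ± 0.20 above monocytes.

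Monocytes held the least TRIB2. Cytotoxic T cells exceeded them by 1.22 ± 0.22 (limma, adjusted p = 0.000331, 4 of 4 animals) and B cells by 0.81 ± 0.22 (adjusted p = 0.00715, 4 of 4 animals). The B cell difference was 0.53 and no longer passed (adjusted p = 0.0621) without the rank 5 animal. Cytotoxic T cells and B cells differed by 0.41 ± 0.23 (adjusted p = 0.226), positive in 3 of 4 animals.

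SEPTIN3, the septin, was the only one of the 6 genes with its lower T cell level under that of B cells. It read 9.53, 9.43, 9.75, 9.21 and 9.60 in helper T cells (9.50 ± 0.20, n = 5), and 8.96, 8.77, 8.92 and 8.98 in B cells (8.91 ± 0.10, n = 4). Cytotoxic T cells read 8.08, 8.24, 8.12 and 8.05 (8.12 ± 0.08, n = 4), and monocytes lay between 7.88 and 7.95 (7.91 ± 0.03, n = 5). The 4 ranges did not overlap, which puts the types in the order helper T cells, B cells, cytotoxic T cells and monocytes. Helper T cells lay 1.42 ± 0.08 above cytotoxic T cells, 1.59 ± 0.08 above monocytes and only 0.63 ± 0.08 above B cells.

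The comparisons of SEPTIN3 among the other 3 types reuse the arrays of the helper comparisons and are no independent support for those. Cytotoxic T cells lay below B cells, with a difference of -0.78 ± 0.09 (limma, adjusted p = 1.56e-05, lower in 4 of 4 animals), and B cells lay 0.96 ± 0.08 above monocytes (adjusted p = 5.96e-07, higher in 4 of 4 animals). Cytotoxic T cells and monocytes differed by 0.17 ± 0.08 (adjusted p = 0.0907), and by 0.21 with an adjusted p of 0.0234 when all arrays of the rank 4 animal were left out.

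APOD, the lipid carrier, was a helper transcript that differed widely from animal to animal. Helper T cells of ranks 1 to 5 read 9.77, 8.21, 8.99, 8.79 and 11.09 (9.37 ± 1.11, n = 5). Cytotoxic T cells read 7.62, 7.73, 7.59 and 7.88 (7.70 ± 0.13), B cells 7.86, 7.74, 7.55 and 7.59 (7.68 ± 0.14), and monocytes lay between 7.56 and 7.73 (7.63 ± 0.07), all near the bottom of the scale. The rank 5 helper array was the highest. The rank 2 helper array lay closest to the other types, whose highest array was the rank 5 cytotoxic array at 7.88. The helper difference from cytotoxic T cells was 1.75 ± 0.36, and ran from 0.48 at rank 2 to 3.21 at rank 5 within animals.

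Outside helper T cells the APOD probe showed no difference between types. The differences were 0.02 ± 0.37 between cytotoxic T cells and B cells (limma, adjusted p = 0.983), -0.01 ± 0.36 between cytotoxic T cells and monocytes (adjusted p = 0.988) and -0.03 ± 0.36 between B cells and monocytes (adjusted p = 0.954), and the arrays overlapped in all 3. These errors carry the spread of the helper arrays and are wider than the spread within the other types.

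SPOCK2, the matrix proteoglycan, was close to constant over the helper arrays and far lower outside the T lineage. It read 13.19, 13.06, 13.03, 13.11 and 12.92 in helper T cells (13.06 ± 0.10, n = 5) and 11.98, 12.49, 11.95 and 11.74 in cytotoxic T cells (12.04 ± 0.32, n = 4). B cells read 8.78, 8.79, 8.57 and 8.99 (8.78 ± 0.17, n = 4), and monocytes lay between 7.95 and 8.11 (8.05 ± 0.06, n = 5). The 4 ranges did not overlap. Helper T cells lay 1.01 ± 0.12 above cytotoxic T cells, a 2.02-fold difference, 4.27 ± 0.12 above B cells and 5.01 ± 0.11 above monocytes.

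Cytotoxic T cells held 3.26 ± 0.13 log2 more SPOCK2 than B cells (limma, adjusted p = 6.45e-10), and 4.00 ± 0.12 more than monocytes (adjusted p = 1.64e-11), in 4 of 4 animals each. B cells exceeded monocytes by 0.74 ± 0.12 (adjusted p = 0.000184, 4 of 4 animals). That last difference had an adjusted p of 0.164 when the 2 rank 4 arrays were kept.

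**Figure D2:**
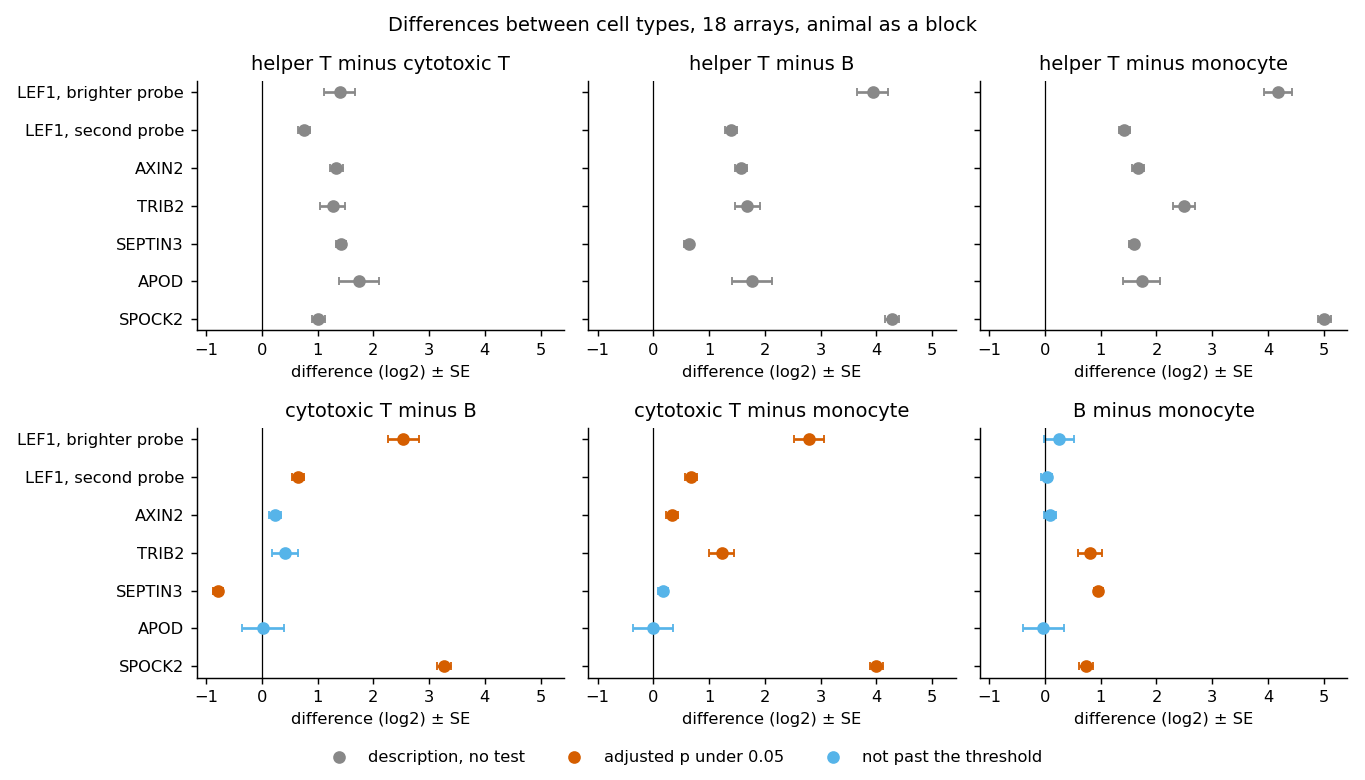
Differences between cell types in log2 (x axis) with standard errors for the 7 probes (y axis), 1 panel for each of the 6 pairs of types, from 1 fit of 18 arrays. Grey points are the helper comparisons that led to the choice of the genes, orange points have an adjusted p under 0.05 and blue points do not; SEPTIN3 stands at -0.78 between cytotoxic T cells and B cells, and SPOCK2 at 4.00 between cytotoxic T cells and monocytes.

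Some T cell transcripts were also higher in the B cell arrays than in monocytes, and others were not. All 10 of the 10 listed T cell markers were measured, and their mean was 8.18, 8.16, 8.41 and 8.54 in B cells of ranks 1, 2, 3 and 5, compared with 7.77 to 7.82 in monocytes and 10.65 to 11.46 in the T cell arrays. Between B cells and monocytes 4 of the 10 passed, where 53.6% of all probes did, so this count does not set the markers apart from the table. The median difference over the list was 0.18. The 4 that passed were CD3D (2.47 ± 0.21, limma, adjusted p = 4.24e-07), CD3G (1.33 ± 0.28, adjusted p = 0.00131), CD6 (0.80 ± 0.11, adjusted p = 2.99e-05) and BCL11B (0.35 ± 0.09, adjusted p = 0.00505). CD3E, CD5, CD28, IL7R and LAT differed by -0.10 to 0.03 and did not pass, nor did CD2 (0.33 ± 0.17, adjusted p = 0.117). In the rank 5 B cell array LEF1, TRIB2 and SPOCK2 were the highest of their type. SEPTIN3 was highest there too, at 8.98 against 8.96 at rank 1. Of the T cell markers in this array, CD3D (11.17), CD3G (9.98), CD6 (8.82), CD2 (8.70) and LAT (7.71) were the highest of their type. CD3E (7.69), CD5 (7.54) and IL7R (7.95) were the lowest of theirs. Outside the list of 10, CD8A read 8.20, 9.64, 10.97 and 8.71 in B cells of ranks 1, 2, 3 and 5. It did not pass between B cells and monocytes. The part of T cell RNA in the B cell values was not tested, nor was whether these arrays hold a mixture of cells. In a mixed sample, fewer cells of a type and less RNA per cell cannot be told apart. Of 9 listed B cell markers 3 were measured, with a mean of 7.89 to 7.93 in helper T cells, 7.86 to 7.97 in monocytes and 9.95 to 10.58 in B cells, and the part of B cell RNA in the helper SEPTIN3 level was not tested.

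The spread between animals was set against that of all probes in the same cell type. The SD of APOD over the helper arrays, 1.11, was larger than that of 99.9% of all probes in helper T cells, whose median SD was 0.135. The SD of LEF1 over the cytotoxic arrays, 0.817, was larger than that of 99.5% of all probes in cytotoxic T cells, whose median was 0.124. TRIB2 had an SD of 0.594 over the B cell arrays, above 96.3% of probes. The SD of SPOCK2 in helper T cells, 0.0982, exceeded 35.5% of probes, and the SD of AXIN2 in cytotoxic T cells, 0.0342 at a level low on the scale, exceeded 5.96%.

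The wide range of LEF1 in cytotoxic T cells can be set beside transcripts of T cell states. LEF1 is known to be high in naive cells and to be lost as cytotoxic T cells turn into effector cells. In the cytotoxic arrays of ranks 1, 2, 3 and 5, the mean of 10 effector genes such as granzymes and CCL5 was 11.44, 10.79, 11.48 and 11.55, and the mean of 9 genes of naive and central memory cells was 9.69, 10.00, 10.05 and 10.18. The array with the highest LEF1, rank 2, had the lowest effector mean, and the array with the lowest LEF1, rank 1, had the lowest naive mean, but rank 5 had both a high LEF1 and the highest effector mean. The mean of 6 of 9 listed NK cell markers was 9.26, 9.04, 9.46 and 9.51 in the cytotoxic arrays and 7.96 to 8.49 in helper T cells. The part of these transcripts in the LEF1 values was not tested.

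**Figure D3:**
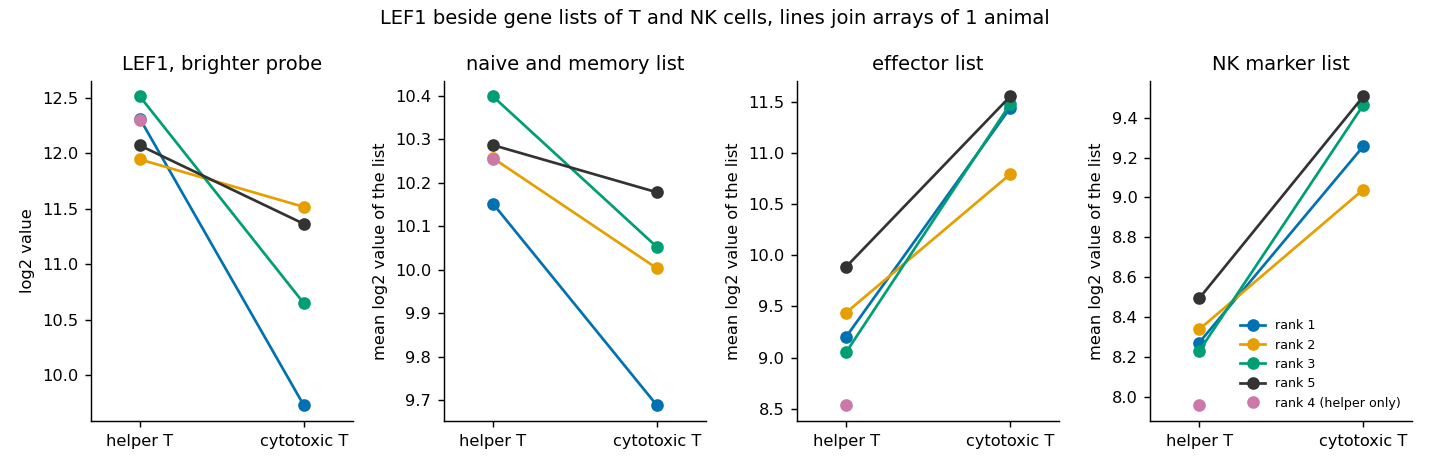
The brighter LEF1 probe and the mean log2 value of the naive and memory, effector and NK marker lists (y axes) in helper and cytotoxic T cells (x axis), with a line joining the 2 arrays of an animal. LEF1 falls from helper to cytotoxic T cells by 0.43 in the rank 2 animal and by 2.58 in the rank 1 animal, while the effector and NK means are higher in the cytotoxic array of all 4 animals.

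Between helper and cytotoxic T cells, the effector genes were lower in helper T cells and no naive or memory gene passed. All 10 measured effector genes of 15 listed were lower in helper T cells at an adjusted p under 0.05, where 2.64% of all probes passed in either direction and 1.44% as lower, with a median difference of -1.91 against 0.0033 over all probes. They included the chemokine CCL5 (-3.34 ± 0.32, limma, adjusted p = 7.81e-05), the cytolytic granulysin GNLY (-2.59 ± 0.31, adjusted p = 0.000591), the granzyme GZMK (-2.30 ± 0.26, adjusted p = 0.000502), the transcription factor EOMES (-2.16 ± 0.11, adjusted p = 6.08e-07), the granzyme GZMH (-1.94 ± 0.27, adjusted p = 0.00169) and the protease inhibitor CST7 (-1.88 ± 0.27, adjusted p = 0.00175). The effector gene KLRG1 did not pass without the animal of rank 1 or 5. None of the 9 measured naive and memory genes of 20 listed passed, where 2.64% of all probes did. Their median difference was 0.31, toward helper T cells, against 0.0033 over all probes, with a range from -0.12 to 0.66. Of the markers, CD8A (-3.74 ± 0.55, adjusted p = 0.00208) and CD8B (-1.32 ± 0.08, adjusted p = 1.33e-06), the chains of the cytotoxic co-receptor, were lower in helper T cells and CD4 (0.87 ± 0.11, adjusted p = 0.000591), the helper co-receptor, was higher.

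Further markers, named after their values were seen, differed between the T cell types as well. CTLA4, the only other helper marker measured besides CD4 of 5 listed, was higher in helper T cells by 0.43 ± 0.06 (limma, adjusted p = 0.00216), and so were 3 of the 10 T cell markers: CD6 (0.77 ± 0.11, adjusted p = 0.00147) and CD5 (0.65 ± 0.12, adjusted p = 0.00756), surface receptors that tune the T cell signal, and BCL11B (0.53 ± 0.09, adjusted p = 0.00601), a transcription factor of the T lineage. The NK receptor genes KLRD1, KLRC1, KLRF1, NCR3 and KLRB1, 5 of 6 measured NK cell markers, were lower in helper T cells, with a median of -0.78 over the 6. NCAM1, the marker that defines NK cells in human blood, read about the same in both types (7.75 on average in each). In these arrays it was highest in monocytes, at 9.98 to 11.19. BCL11B did not pass without the animal of rank 1, 3 or 5, CD5 and KLRB1 without rank 3, and KLRC1 without rank 5. None of the 3 B cell or 7 monocyte markers passed. With the 2 rank 4 arrays kept, 2 of these 47 effector, naive and marker genes passed instead of 22.

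Between helper and cytotoxic T cells, the remaining Wnt pathway genes that were measured passed about as often as all probes. Of 119 listed genes other than the members, 38 were measured. In helper T cells 0 of these were higher and 1 was lower by limma at an adjusted p under 0.05. Over all probes 2.64% passed in either direction and 1.44% as lower, so this count does not set the pathway genes apart from the table. The median difference was 0.03 log2 against 0.0033 for all probes. By role, 0 of 2 measured genes for ligands and their secretion, 0 of 4 receptors, 0 of 14 cytoplasmic components and 0 of 9 nuclear factors passed. Several of these probes read near or below the lower quartile of 8.04 in both T cell types. Their helper and cytotoxic means were 8.06 and 8.03 for RSPO2, 7.94 and 7.89 for WLS and 7.82 and 7.82 for FZD1. They were 8.06 and 8.02 for FZD8 and 7.80 and 7.80 for TLE1. A difference in such dim probes could be missed. RSPO2 and WLS are not Wnt ligands themselves, and the 9 nuclear factors hold no TCF/LEF protein. None of the 15 listed extracellular and membrane inhibitors was analysed here.

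Among the 9 measured target genes, the 1 that passed was ID2, an inhibitor of helix-loop-helix transcription factors. It read 11.51, 12.54, 11.90, 11.37 and 11.87 in helper T cells and 12.71, 13.03, 12.87 and 12.77 in cytotoxic T cells, so every helper array lay below every cytotoxic array. The difference was -0.98 ± 0.23 (limma, adjusted p = 0.0397), opposite in sign to the members. Leaving out the animal of rank 1, 3, 4 or 5 ended this call, with differences from -1.01 to -0.89. The effector and NK marker means were higher in the same cytotoxic arrays, and their part in the ID2 difference was not tested.

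DACT1, a cytoplasmic protein that binds Dishevelled, had the largest positive difference of the 38 genes. It read 9.86, 8.66, 10.59, 8.98 and 10.04 in helper T cells and 8.37, 8.38, 8.84 and 9.29 in the cytotoxic arrays, and the helper arrays of ranks 2 and 4 lay within the cytotoxic range. The difference was 0.95 ± 0.31 and did not pass (adjusted p = 0.145). CTNNB1, which encodes β-catenin, differed by 0.05 ± 0.15 (adjusted p = 0.971), with 8.94 to 10.15 in helper T cells and 9.08 to 9.84 in cytotoxic T cells. Both genes were chosen after their values were seen.

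**Figure D4:**
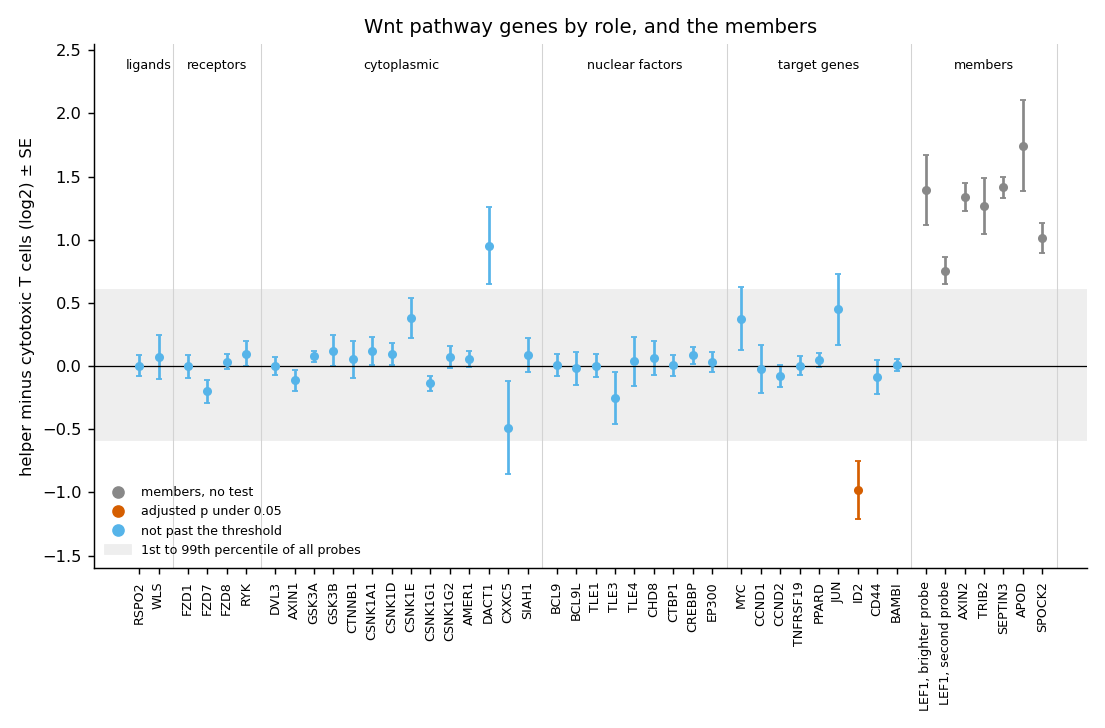
Difference between helper and cytotoxic T cells in log2 with its standard error (y axis) for the 38 measured Wnt pathway genes grouped by role and, at the right, the 7 probes of the 6 genes (grey, no test). The grey band spans the 1st to the 99th percentile of all probes, from -0.59 to 0.60; ID2 at -0.98 is the one gene past the threshold, and DACT1 at 0.95 lies outside the band but is not past it.

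Against the other types the pathway genes passed in both directions. Against B cells, 6 of the 38 genes were higher in helper T cells and 7 lower. Over all probes 25.2% passed there in either direction. Against monocytes 13 were higher and 12 lower, where 61.5% of all probes passed in either direction. These counts do not set the pathway genes apart from the table. Against B cells the decrease of CXXC5, a zinc finger protein that binds Dishevelled (-2.87 ± 0.37, limma, adjusted p = 6.28e-05), and that of TLE1, a co-repressor that binds TCF/LEF proteins (-1.82 ± 0.09, adjusted p = 1.23e-08), stood beside increases of ID2 (2.63 ± 0.23, adjusted p = 1.94e-06) and DACT1 (1.53 ± 0.31, adjusted p = 0.00205). These 4 genes were picked for the size of their differences. TLE1 was a B cell transcript, at 9.29 to 9.93 in B cells, against 7.69 to 7.91 in the other types.

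Of 22 listed relatives of the 6 genes by sequence family, 8 were measured, and most did not share the pattern. Between helper and cytotoxic T cells TRIB1, a Tribbles relative of TRIB2, was higher by 0.98 ± 0.18 (limma, adjusted p = 0.00884). It read 10.04, 8.99, 9.60, 9.87 and 9.71 in helper T cells and 8.48, 8.65, 8.81 and 8.43 in cytotoxic T cells, but 12.64 to 13.54 in monocytes, where TRIB2 was lowest. The difference between helper T cells and monocytes was -3.58 ± 0.17 (adjusted p = 8.12e-10). The TRIB1 call between the T cell types was lost without the animal of rank 1 (adjusted p = 0.128) or rank 3 (0.0544). TRIB3 differed by 0.53 ± 0.23 between the T cell types (adjusted p = 0.350) and was, like TRIB1, higher in monocytes than in helper T cells, with a difference of -1.05 ± 0.21 (adjusted p = 0.000620).

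AXIN1, the scaffold that is not known as a target of the pathway, differed by -0.11 ± 0.08 between helper and cytotoxic T cells (limma, adjusted p = 0.694). It read 9.48, 9.04, 9.87, 9.34 and 9.85 in helper T cells and 9.42, 9.13, 10.03 and 10.08 in cytotoxic T cells, which overlap. Among the septins, SEPTIN11 was lower in helper T cells by 0.44, with a difference of -0.44 ± 0.10 (adjusted p = 0.0409), a call lost without the animal of rank 1, 3, 4 or 5 (adjusted p = 0.0768 to 0.221) and with no replicate block (0.489). SEPTIN6 (0.40 ± 0.13, adjusted p = 0.151), SEPTIN1 (0.14 ± 0.07, adjusted p = 0.494), SEPTIN2 (-0.15 ± 0.08, adjusted p = 0.523) and SEPTIN5 (0.05 ± 0.07, adjusted p = 0.899) did not pass. SEPTIN6 differed from SEPTIN3 in that its B cell level, 9.83 to 10.82, overlapped that of cytotoxic T cells, 10.35 to 11.24.

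Over the 18 arrays the members followed each other to different degrees. The correlation was highest between LEF1 and SPOCK2 (r = 0.974) and lowest between SEPTIN3 and SPOCK2 (r = 0.579). With the mean of the 6 genes, each scaled to the same SD, TRIB2 correlated at 0.96, LEF1 and AXIN2 at 0.93, SPOCK2 at 0.90 and SEPTIN3 and APOD at 0.83. These values are descriptions over 18 arrays of 5 animals, in which the steps between the 4 cell types make up most of the variation.

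The probes with the most similar pattern to that mean were those of LINC01278, a long non-coding RNA (r = 0.950 over 18 arrays), SOS1, an exchange factor for Ras (0.948), DNM3, a dynamin (0.948), TRAF3IP2, an adaptor of interleukin 17 receptors (0.940), RCAN3, a regulator of calcineurin (0.940), 2 probes of GALT, an enzyme of galactose metabolism (0.937 and 0.932), and HPCAL4, a neuronal calcium sensor relative (0.932). All 8 probes had their highest mean in helper T cells, followed by cytotoxic T cells, B cells and monocytes, with B cells and monocytes nearly level for DNM3 and the brighter GALT probe. From helper to cytotoxic T cells RCAN3 went from 9.19 ± 0.42 to 8.33 ± 0.17 (SD), with 8.03 ± 0.08 in B cells and 7.81 ± 0.04 in monocytes. The likeness was picked from all probes with 1 symbol, so no test is given.

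A rule that asked for at least 1 log2 above each other type, with an adjusted p under 0.05 in all 3 helper comparisons, was met by 8 of the 7303 probes (0.11%). Of these, 5 were the brighter LEF1 probe, AXIN2, TRIB2, APOD and SPOCK2, and 3 had no gene symbol. SEPTIN3 fell short of it through its difference of 0.63 from B cells and the dimmer LEF1 probe through its difference of 0.75 from cytotoxic T cells. These counts use the contrasts that led to the choice, so the share of the members among the 8 probes follows from that choice. The adjusted p served as a filter here, not as a test of the members. The counts are given as a description and are no support for the members.

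Along dominance rank none of the 7 probes passed in any cell type, and 0% of all probes did. Of the 28 slopes, 0 had an unadjusted p under 0.05 in limma, where the share of all probes with one was 5.57% for helper T cells, 12.6% for cytotoxic T cells, 9.86% for B cells and 6.45% for monocytes. The steepest slope was that of APOD in helper T cells, 0.32 ± 0.28 log2 per rank step (adjusted p = 0.819, 5 animals), whose 2 highest arrays were those of ranks 5 and 1. LEF1 in cytotoxic T cells had 0.29 ± 0.19 on the brighter probe (adjusted p = 0.585) and 0.13 ± 0.06 on the dimmer (adjusted p = 0.460), and TRIB2 in B cells had 0.22 ± 0.14 (adjusted p = 0.602), over 4 animals each. The slope did not pass a test of a difference between the cell types for any probe, with adjusted p from 0.756 to 0.997, where 0.0274% of all probes passed.

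**Figure D5:**
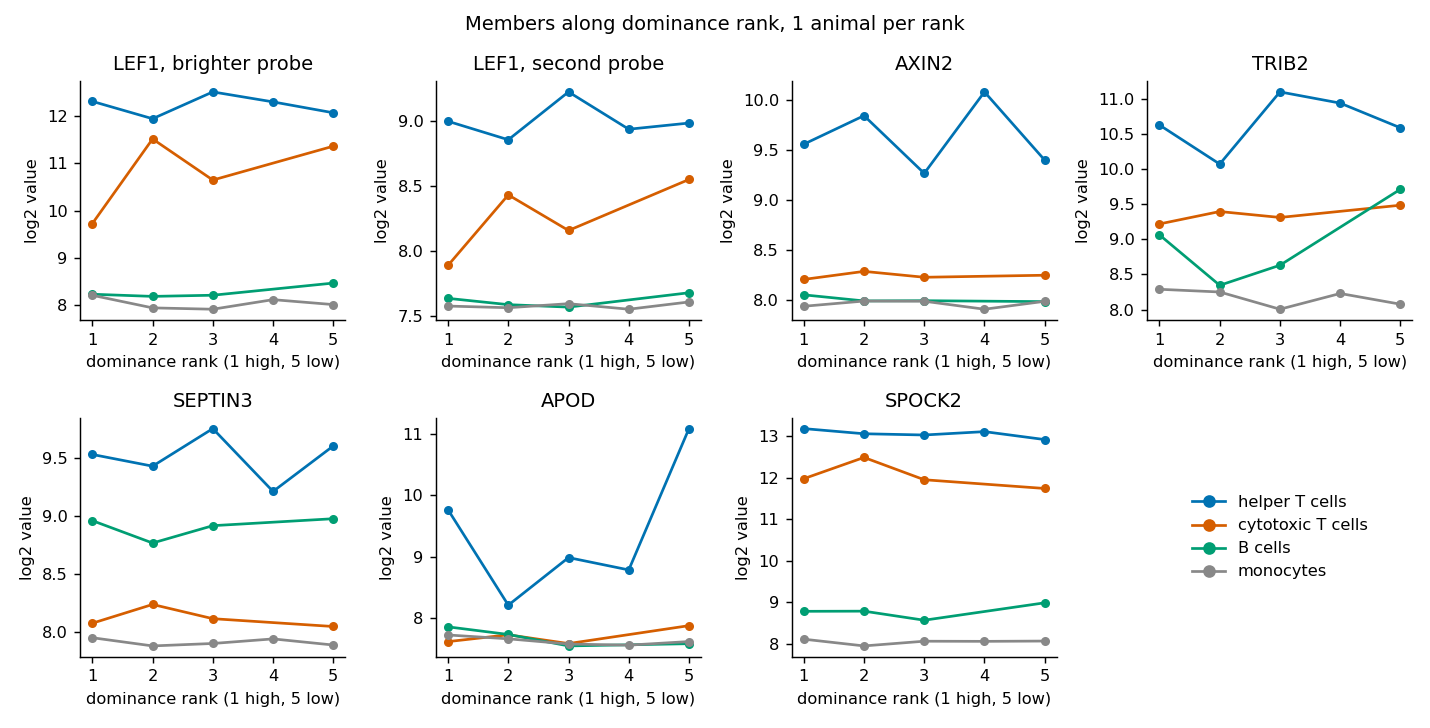
The log2 value of the 7 probes (y axis, a separate scale for each panel) by dominance rank from 1 (high) to 5 (low) (x axis), with 1 line per cell type and 1 animal per rank; the cytotoxic T cell and B cell lines skip rank 4. APOD in helper T cells reads 9.77 at rank 1, 8.21 at rank 2 and 11.09 at rank 5.

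The 2 rank 4 arrays did not follow the pattern of their labels for these genes. The cytotoxic array read 9.80 for the brighter LEF1 probe, within the range of its type, but 8.95 for SPOCK2, far below the other cytotoxic arrays, and 9.28 for AXIN2, above the lowest helper array. The B cell array read 9.55 for LEF1, 9.25 for AXIN2, 10.47 for APOD and 10.45 for SPOCK2, all above the other B cell arrays. With both arrays kept, the SPOCK2 difference between helper and cytotoxic T cells was 1.64 and that between helper T cells and B cells 3.95. The APOD difference between helper T cells and B cells then fell to 1.13, while 19 of the 21 helper differences still reached 1 log2.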

How the data were processed

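Total RNA of 4 sorted cell types from 5 animals was measured on Illumina arrays with human probes, per the labels. The values deposited by the authors were logarithmic and were taken as log2. The authors had brought all 20 arrays to a common distribution, and the submitters' processing notes name the package lumi, with no version. No source gives the logarithm's base, and a variance-stabilised scale would shrink differences of dim probes. The table named as not normalized equals the other table once matched by probe (largest difference 0), so raw intensities and detection values were not used here. The sources used here do not give the background correction or the filter behind the 7303 probes.

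Probes were named through the array's annotation (6055 with 1 symbol, 1 with several, 1247 with none), and all 6 member symbols were found in RefSeq's macaque gene table. Neither coordinates nor sequences were used. Groups follow the labels, and arrays of 1 rank come from 1 animal by the code in the titles. Deviations from the type means correlated at a median of 0.478 between arrays of 1 animal (0.238 to 0.809, 25 pairs) and of -0.248 between different animals and types.

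A single limma fit (version 3.58.1, R 4.3.3, functions lmFit and eBayes) compared the types over 18 arrays, the animal being a block, and left 10 residual degrees of freedom. P-values were two-sided and adjusted by the Benjamini-Hochberg method over all probes within each of the 6 contrasts, with a threshold of 0.05. Rank was fitted as a slope within each type, and the interaction of type with rank in a fit that kept the animal as a block. Errors after a difference are standard errors, and errors after a mean are SDs. The fit was tested on simulated data. The number of arrays limits the precision, and nothing in the labels says that an array is more than 1 sample of 1 animal.

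The members, the gene lists and the tests were chosen with earlier results of these data known. Named genes are the members, list genes past the threshold between helper and cytotoxic T cells (at most 8 per Wnt list, at most 6 of the naive and effector lists), measured paralogues, the markers CD3D, CD4, CD8A, CD8B, CD79B and CD14, and the 8 probes most correlated with the mean of the members. Where a gene has several probes, the brightest stands for it. Alternatives were all 20 arrays, no replicate block, leaving out each animal, only probes above 8 in at least 1 type, and a variance trend. Figures were drawn with matplotlib 3.10.9 in Python 3.11.15.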

Additional observations from a re-analysis of the deposited data

Results flagged for a closer look

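Of the 28 groups made by 7 probes and 4 cell types, 2 held an array far from the others of its group by Dixon's criterion, and chance flags about 1 in 20 groups. The brighter LEF1 probe in B cells read 8.47 in the rank 5 array, with the next array at 8.23 and 4 arrays in all. The AXIN2 probe in B cells read 8.05 in the rank 1 array, with the next array at 7.99 and 4 arrays in all. In the rank 5 B cell array the T cell marker CD3D was the highest of its type, at 11.17, whereas CD3E (7.69), CD5 (7.54) and IL7R (7.95) were the lowest of theirs, and the part of T cell RNA in the LEF1 value was not tested. Groups in which several arrays lay far apart, such as APOD in helper T cells and LEF1 in cytotoxic T cells, were not flagged.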

How the results depend on the processing

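With all 20 arrays the count of other Wnt genes past the threshold between helper and cytotoxic T cells went from 1 to 0, and that of the 47 naive, effector and marker genes from 22 to 2. Over the whole table the same comparison went from 193 to 22 probes, with 125 in the fit with no replicate block and 72 to 169 when 1 animal was left out. Leaving out 1 animal gave 0 or 1 Wnt genes, 19 to 22 naive, effector and marker genes, 10 to 13 of the 21 member differences among the other 3 types (12 in the full fit, 11 with no replicate block and 11 with all 20 arrays), and 17 to 19 helper differences of at least 1 log2. No probe of the members passed along rank under any alternative, nor did a difference of slopes with the replicate block. No difference that passed in both the main fit and an alternative changed direction. Differences that passed in neither could change sign. For APOD, the B cell array of rank 4 read 10.47, against 7.55 to 7.86 in the other B cell arrays. Its small differences between B cells and cytotoxic T cells or monocytes therefore did not keep their sign with all 20 arrays. Of single member differences among the other types, 5 lost and 1 gained the call under an alternative and 183 kept their side of the threshold. The animals and settings behind the lost and gained calls are named beside each gene. The ID2 difference was -0.02 with all 20 arrays. The cause of these changes was not tested. All p-values rest on 4 or 5 animals. In the main fit, those between cell types come from the spread left within animals, pooled over all types. Those along rank within a type come from the arrays of that type, 1 per animal.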
